A study of Homo sapiens with 6 samples.

Results

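The circadian clock genes described here are PER1, PER2, PER3, CRY1, CRY2, NR1D1, NR1D2, BHLHE40 and ARNTL, the last of which is also named BMAL1. Accessible chromatin had been mapped by DNase-seq, in which DNase I digests nuclei and the DNA ends it frees are sequenced, in A549, a human lung adenocarcinoma cell line. All cells had been grown to near confluence. They then received for 1 h either 100 nM dexamethasone, a synthetic ligand of the glucocorticoid receptor, or 0.02% ethanol, the vehicle, with 3 libraries per treatment. A clock region was any stretch of called peaks reaching within 100 kb of 1 of the 9 gene starts, with peaks that share at least 1 bp merged over the 6 libraries. There were 156 such regions out of 81216 in the whole series. The labels do not say whether the libraries came from separate cultures, so the p-values measure only the spread between these libraries, which may be technical. The cells come from 1 cancer line, and the files hold no transcript levels, so the data bear on chromatin near the clock genes and not on their expression.

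The circadian clock is a feedback loop of transcription. ARNTL, paired with CLOCK, activates genes through the E-box, a short DNA element; the PER and CRY proteins accumulate and repress that pair, while NR1D1 and NR1D2 (REV-ERB alpha and beta) repress ARNTL through the element they share with the ROR activators. BHLHE40 (DEC1) also binds E-boxes as a repressor, and the D-box is bound by PAR bZIP factors such as DBP. Glucocorticoids are known to reset clocks in peripheral tissues, and PER1 is a known early target gene of the glucocorticoid receptor.

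The sequences in front of the starts show how these elements are distributed over the loop. They are RefSeq promoter windows of the GRCh38.p14 build, 250 bases before and 50 after each start. All 9 genes had at least 1 window and the genes with several starts brought the number to 13. The 4 windows of the repressors that held an E-box or D-box are printed as the 250 bases before the start, 5′ to 3′ on the gene's strand. For ARNTL the 30 bases around its match to the ROR/REV-ERB element are printed. Capitals mark matches on either strand to the E-box CACGTG, the D-box TTATGNAA or the ROR/REV-ERB element AGGTCA.
PER1, chr17:8152405-8152654, minus strand: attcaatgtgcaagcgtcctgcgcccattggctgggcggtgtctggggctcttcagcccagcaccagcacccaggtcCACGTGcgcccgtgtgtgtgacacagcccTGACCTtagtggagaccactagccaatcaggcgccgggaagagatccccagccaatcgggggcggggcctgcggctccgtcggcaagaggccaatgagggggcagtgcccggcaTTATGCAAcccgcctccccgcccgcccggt
PER3, first start, chr1:7784041-7784290, plus strand: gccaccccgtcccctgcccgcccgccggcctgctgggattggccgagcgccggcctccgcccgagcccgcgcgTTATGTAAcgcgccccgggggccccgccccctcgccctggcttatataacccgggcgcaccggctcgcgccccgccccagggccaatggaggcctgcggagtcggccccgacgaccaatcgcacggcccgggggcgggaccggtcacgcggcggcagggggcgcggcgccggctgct
NR1D2, second start, chr3:23945871-23946120, plus strand: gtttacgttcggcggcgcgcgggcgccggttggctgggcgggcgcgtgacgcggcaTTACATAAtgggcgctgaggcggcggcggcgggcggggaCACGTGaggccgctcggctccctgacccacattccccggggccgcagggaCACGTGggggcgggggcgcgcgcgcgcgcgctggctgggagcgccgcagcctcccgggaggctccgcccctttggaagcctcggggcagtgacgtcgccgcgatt
BHLHE40, chr3:4979187-4979436, plus strand: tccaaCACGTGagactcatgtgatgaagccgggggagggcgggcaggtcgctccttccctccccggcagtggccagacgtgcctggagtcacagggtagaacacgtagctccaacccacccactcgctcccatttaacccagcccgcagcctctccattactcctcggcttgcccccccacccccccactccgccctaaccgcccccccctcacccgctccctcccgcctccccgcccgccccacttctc
ARNTL, second start, chr11:13277809-13277838, plus strand: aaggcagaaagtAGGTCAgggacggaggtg

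Counting the base at the start as 1, PER1 had the E-box at -173, the ROR/REV-ERB element on the reverse strand at -144 and the D-box at -30. NR1D2 had E-boxes at -155 and -105 and a D-box on the reverse strand at -194, all before its second start, which lies 835 bp downstream of the first. PER3 held a D-box at -177, and BHLHE40 an E-box at -245. The ROR/REV-ERB element stood at 32 in ARNTL and at -62 and -64 before the first and second starts of CRY2. Of the 13 windows, 3 held an E-box, against 7.26% of the 35116 promoter windows of the same length. A D-box was in 3 of the 13 and in 3.30% of all windows, and the ROR/REV-ERB element in 4 of the 13 and in 13.8% of all. The hexamer TGTTCT, which makes up each side of the glucocorticoid response element, was found on either strand in 14.8% of all windows and in 1 of the 13, on the reverse strand of BHLHE40 at -153. The full glucocorticoid response element, taken here as AGAACA and TGTTCT 3 bases apart, was in none of the 13 windows and in 1 of the 35116. These exact matches are descriptions of letters in the windows and say nothing of factor binding. The deposited peaks are in hg19, and whether the RefSeq starts are the same bases as the hg19 starts used for the peaks was not tested.

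Chromatin at the starts of all 9 genes was called accessible in all 6 libraries. In 8 genes the region held the hg19 start itself; the region of PER2 began 144 bp upstream of it. The region at the PER1 start was the narrowest of the 9, 360 bp wide, and reached 228 bp upstream and 131 bp downstream. That of BHLHE40 was the widest, at 1336 bp, and reached 1180 bp upstream and 155 bp downstream. The authors' deposited fold enrichment of a peak over the caller's background, a value that belongs to its own library, described how these starts differed from one another. ARNTL, the activator of the loop, had the highest folds of the start regions, and PER1 and PER2 the lowest 2 by their means over libraries.

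At the ARNTL start (hg19 chr11:13298812-13299736) the folds were 15.02, 15.6 and 16.4 with dexamethasone and 14.8, 14.7 and 15.7 with ethanol. At CRY2 (chr11:45868612-45869195) they were 13.2, 14.7 and 12.98 against 13.1, 12.3 and 14.5, and at PER3 (chr1:7843495-7844485) 12.9, 13.2 and 11.9 against 12.7, 13.2 and 12.4. The treatments overlapped at all 3 of these strong starts. CRY1, whose protein represses the ARNTL pair as CRY2 does, had folds of 11.9, 12.2 and 11.6 against 9.85, 11.2 and 12.04 at its start (chr12:107487189-107488127). The overlap there came from ethanol library 3, which lay within the dexamethasone range.

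By fold the starts of the nuclear receptor genes lay below those of ARNTL, CRY2, PER3 and CRY1. The mean fold of NR1D1 was 7.47, and that of NR1D2, 6.36, was below the 6.63 of BHLHE40. NR1D1 (chr17:38256738-38257347) had folds of 7.23, 8.37 and 6.65 with dexamethasone and 7.29, 7.69 and 7.59 with ethanol. NR1D2 (chr3:23986356-23986907) had 6.28, 6.05 and 5.71 against 6.92, 5.92 and 7.29. A separate region 0.827 kb downstream of the NR1D2 start (chr3:23987168-23987988) was stronger, with 10.8, 10.4 and 10.1 against 10.7, 11.2 and 10.7. The treatments overlapped in all 3 of these regions. The order of the genes by fold rests on 1 hg19 start per gene. NR1D2 also has a RefSeq start 835 bp downstream of its first, and whether the region at 0.827 kb holds it was not tested.

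At BHLHE40 (chr3:5019917-5021252) the folds were 6.18, 6.34 and 7.05 with dexamethasone and 6.05, 7.43 and 6.72 with ethanol. At PER2 (chr2:239197351-239197830) they were 4.87, 6.23 and 4.89 against 5.65, 6.71 and 7.64, with dexamethasone library 2 above the lowest ethanol library. PER1 (chr17:8055622-8055981) had 4.97, 5.41 and 5.08 against 5.59, 5.50 and 5.49. Among the 9 start regions the folds did not overlap at PER1 alone, with means of 5.15 ± 0.23 (SD, n = 3) under dexamethasone and 5.53 ± 0.055 (SD, n = 3) under ethanol. Over all regions of the series called in all 6 libraries, 5.59% had all ethanol folds above all dexamethasone folds and 5.73% the reverse, so 1 such region among 9 starts is no result about the starts. Folds come from lists called separately. The strength was therefore also taken as the percentile of −log10 q, the caller's adjusted significance, after each list was trimmed to its 58281 strongest peaks. On that scale the PER1 start did overlap, at 77.0, 74.2 and 74.5 with dexamethasone and 79.7, 74.2 and 76.1 with ethanol. Mean percentiles of the 9 start regions ran from 69.4 at PER2 to 99.1 at ARNTL. Their order was not that by fold: NR1D2, at 71.9, stood below PER1, at 75.9.

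**Figure D1:**
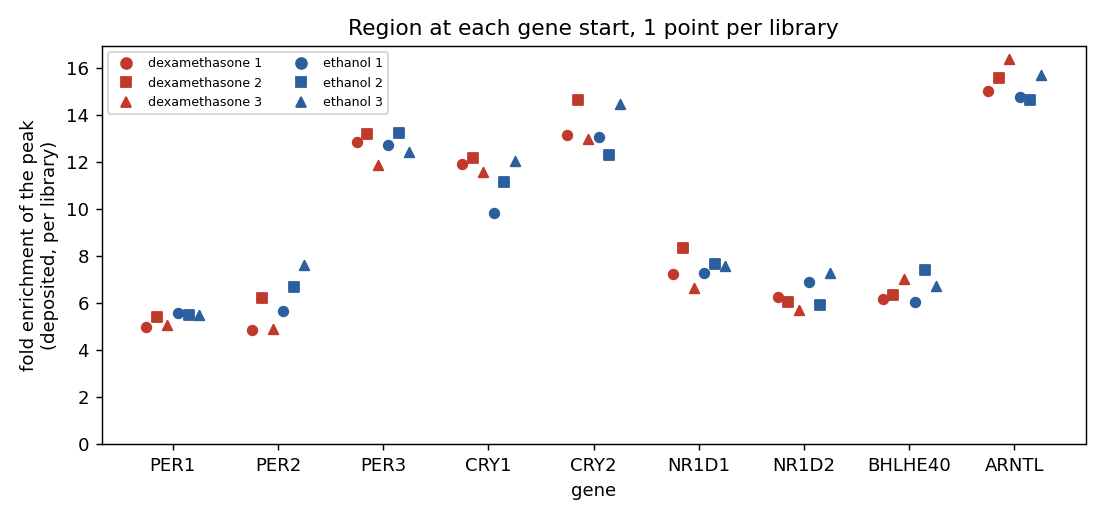
Deposited fold enrichment (vertical axis, no unit) of the peak at each of the 9 gene starts, 1 point per library, red for dexamethasone and blue for ethanol. ARNTL lies highest and PER1 and PER2 lowest, and the colours overlap at every gene but PER1.

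Over the 9 genes together the libraries of both treatments carried the same number of peaks. The dexamethasone libraries had 131, 133 and 122 peaks near the clock genes and the ethanol libraries 128, 133 and 125. The means were 128.7 ± 5.86 (SD, n = 3) and 128.7 ± 4.04 (SD, n = 3), a difference of 0 (exact two-sided permutation test, p = 1). As a share of each list, which held 58281 to 61344 peaks, the values were 0.2245%, 0.2193% and 0.2079% against 0.2196%, 0.2200% and 0.2038%. The difference of 0.00276 percentage points was smaller than the spread between libraries (exact two-sided permutation test, p = 0.7). It changed sign to -0.000855 without dexamethasone library 1 and to -0.002585 without ethanol library 3. With 3 libraries against 3 the smallest p this test can give is 0.1.

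PER1 lay in the densest neighbourhood, with 38 regions, and PER3 in the sparsest, with 5. Peaks near PER1 numbered 37 in each dexamethasone library and 35, 35 and 33 in the ethanol libraries. It was the one gene of the 9 at which the counts did not overlap between treatments, with 37.0 ± 0 (SD, n = 3) against 34.3 ± 1.15 (SD, n = 3). The exact two-sided permutation test gave p = 0.1, the smallest it can give, and 0.9 after Benjamini-Hochberg adjustment over the 9 genes. Within 10 kb of the PER1 start the difference turned from 2.667 more peaks to -0.6667 under dexamethasone.

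The other PER and CRY genes had counts that overlapped between treatments. PER2 had 13, 15 and 14 peaks against 13, 14 and 14, and PER3 had 4, 3 and 4 against 3, 5 and 5. CRY1 had 6, 8 and 5 against 6, 7 and 7, while CRY2 was nearly constant at 12, 13 and 13 against 13, 12 and 13. Among the remaining members NR1D1 had the second densest window, with 26, 25 and 20 peaks against 23, 26 and 24, where dexamethasone library 3 was the lowest of the 6. NR1D2 had 8, 9 and 7 against 7, 9 and 7. BHLHE40 had 14, 10 and 10 against 13, 11 and 12. ARNTL had 11, 13 and 12 against 15, 14 and 10, so the ethanol libraries held both its highest and its lowest count.

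**Figure D2:**
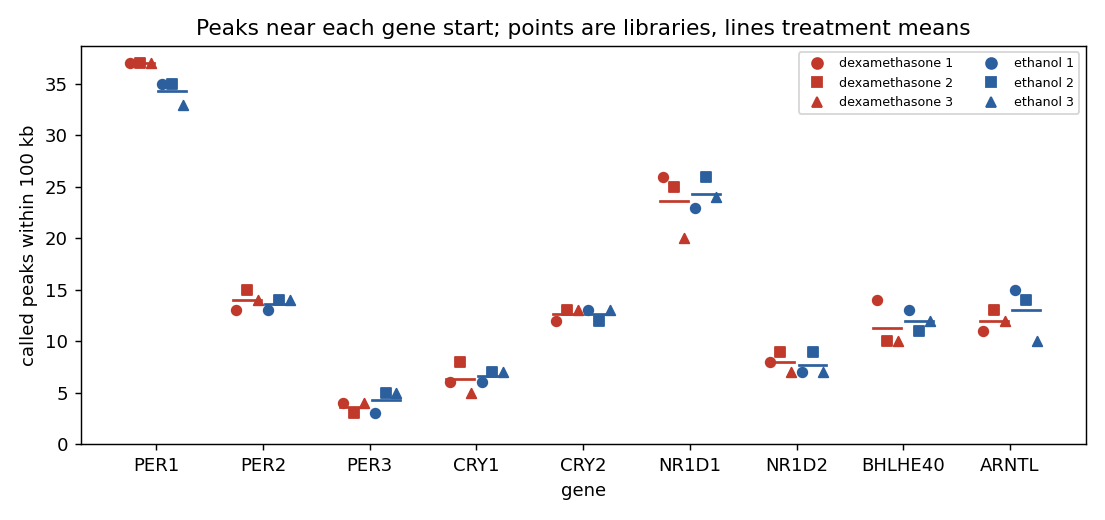
Number of called peaks within 100 kb of each gene start (vertical axis), 1 point per library with lines at the treatment means. PER1 has 37 peaks in all 3 dexamethasone libraries and 33 to 35 in the ethanol libraries; the points of the other 8 genes overlap.

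Of the 156 clock regions, 98 (62.8%) were called in all 6 libraries, where the share over all regions of the series was 49.2%. Another 36 were called in 2 to 5 libraries and 22 (14.1%) in a single library, against 18.9% over all regions. Among those 22, 12 came from dexamethasone and 10 from ethanol libraries. More dexamethasone than ethanol libraries called 22 regions (14.1%), against 19.7% over all regions. The reverse held for another 22 (14.1%), against 22.5%. Within 10 kb of the starts, 18 of 22 regions (81.8%) were called in all 6 libraries. Between 10 and 50 kb 43 of 76 (56.6%) were, and between 50 and 100 kb 37 of 58 (63.8%). The 18 include the 9 start regions. Shares at these distances from other genes were not counted, so the bands show no trait of the clock genes. By gene, regions called in all 6 libraries made up 27 of 38 at PER1, 12 of 16 at PER2, 3 of 5 at PER3, 5 of 11 at CRY1 and 10 of 13 at CRY2. They made up 19 of 26 at NR1D1, 6 of 12 at NR1D2, 9 of 18 at BHLHE40 and 7 of 17 at ARNTL.

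**Figure D3:**
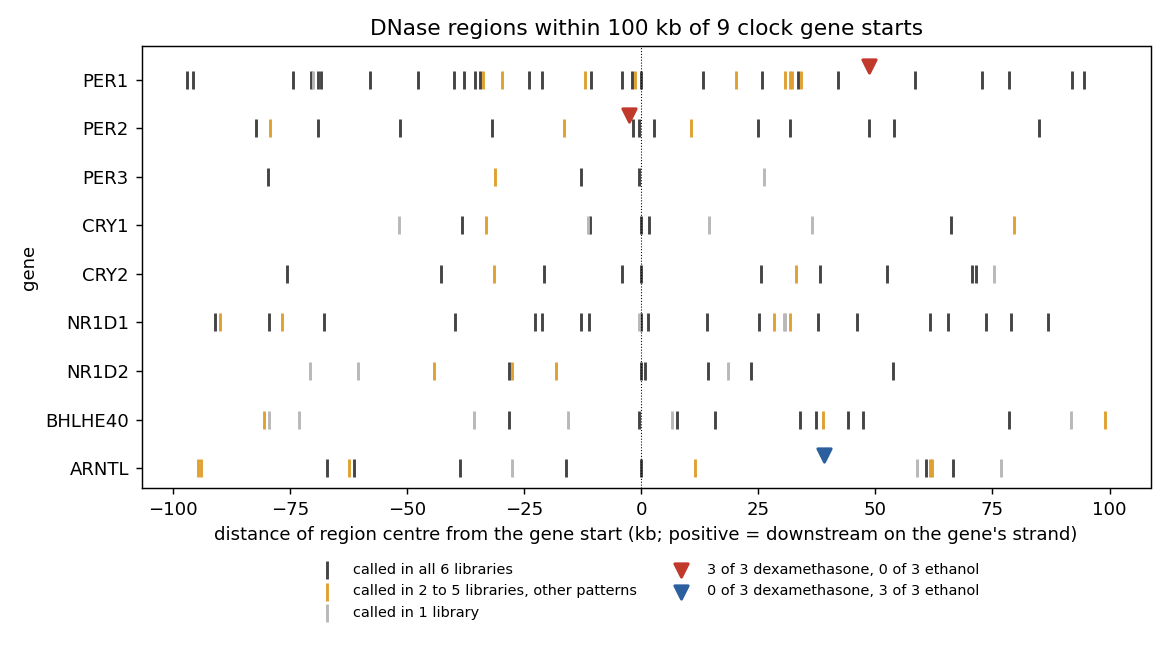
Position of the 156 regions relative to each gene start (horizontal axis, kb, positive downstream on the gene's strand); black ticks mark regions called in all 6 libraries, orange 2 to 5 libraries, grey 1 library. Red triangles mark the 2 regions called in every dexamethasone and no ethanol library, near PER1 and PER2, and the blue triangle the reverse case near ARNTL.

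Few regions were called in every library of 1 treatment and in none of the other, near the clock genes as over the whole series. The pattern of 3 of 3 dexamethasone and 0 of 3 ethanol libraries was found at 2 of the 156 regions (1.28%), beside 1.1% of all regions, and the reverse at 1 (0.641%), beside 0.662% of all. Both shares were near the background. The 2 dexamethasone-only regions lay in the windows of PER1 and PER2, and the ethanol-only region in that of ARNTL. With shares near the background, these places are no result about the 3 genes or their roles in the loop.

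The PER1 region (hg19 chr17:8006900-8007202, 303 bp) was centred 48.7 kb downstream of the start. Its folds were 5.31, 6.64 and 6.57 in the dexamethasone libraries, 6.17 ± 0.75 (SD, n = 3). The percentiles were 32.6, 47.0 and 55.1, so it was a peak of middle rank in each list. The summits of all 3 libraries stood 48.68 kb from the start, and the nearest ethanol peak was 6.27 kb away. Where no peak was called, signal may still have been present below the caller's limit.

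The PER2 region (chr2:239199684-239199992, 309 bp) was centred 2.63 kb upstream of the start and was weaker. Its folds were 3.86, 3.25 and 3.37, 3.49 ± 0.32 (SD, n = 3), at percentiles of 42.4, 11.9 and 12.9. Dexamethasone library 1 stood well above the other two in rank. A region called in all 6 libraries lay 0.491 kb away, whereas the nearest such region was 6.27 kb from the PER1 site. Summits fell within 2.61 to 2.64 kb upstream.

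The ethanol-only region near ARNTL (chr11:13338062-13338421, 360 bp) was centred 38.9 kb downstream of its start. Folds were 4.55, 5.17 and 5.58, 5.10 ± 0.52 (SD, n = 3), and percentiles 10.1, 20.1 and 29.2. The nearest dexamethasone peak was 19.7 kb away. No distance here assigns a region to a gene: in the RefSeq order of GRCh38.p14, the protein-coding genes nearest downstream of PER1 were HES7, ALOXE3 and ALOX12B, upstream of PER2 TRAF3IP1, ASB1 and TWIST2, and downstream of ARNTL BTBD10, PTH and FAR1.

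When single libraries were left out, the pattern was met by 2 to 3 regions for dexamethasone and 1 to 3 for ethanol. The ethanol count rose to 2 without dexamethasone library 1, ethanol library 1 or ethanol library 2, and to 3 without dexamethasone library 3. The rule is looser with 5 libraries, and the shares over all regions rose with it, to between 1.52% and 2.17% for dexamethasone and between 1.17% and 1.84% for ethanol. The 3 regions just described kept their pattern under the stricter threshold, lists of one length, both other ways of merging or counting, and each left-out library. The 10 kb window leaves out the PER1 and ARNTL regions.

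A looser criterion asked for at least 2 more libraries of one treatment. It was met by 4 regions (2.56%) on the dexamethasone side, beside 4.47% of all regions, and by 6 (3.85%) on the ethanol side, beside 4.8%. Both shares were below those of all regions, on counts of 4 and 6. Beside the regions above, the dexamethasone side held a PER1 region 31.7 kb downstream (chr17:8023905-8024275), with folds of 2.98, 3.34 and 2.82 and a peak of 2.53 in ethanol library 1. It also held a CRY1 region 33.2 kb upstream (chr12:107520703-107520922), called in dexamethasone libraries 1 and 2 with folds of 5.80 and 5.83. Their percentiles in the dexamethasone libraries reached 30.7 at most.

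On the ethanol side, 3 regions were called in all ethanol libraries and 1 dexamethasone library. The PER1 region 1.29 kb upstream of the start (chr17:8056918-8057172) had folds of 2.92, 3.76 and 3.30 with ethanol and 3.43 in dexamethasone library 3, with a region called in all 6 libraries 0.351 kb away. The CRY2 region 31.4 kb upstream (chr11:45837348-45837686) had 5.42, 6.51 and 7.18 with ethanol and 4.31 in dexamethasone library 3. The BHLHE40 region 98.9 kb downstream (chr3:5119906-5120185) had 6.65, 7.74 and 5.34 with ethanol and 5.66 in dexamethasone library 1. The single dexamethasone peak fell inside the ethanol range at PER1 and BHLHE40 and below it at CRY2. Finally, 2 regions were called in 2 ethanol libraries alone: PER2 79.2 kb upstream (chr2:239276329-239276535) with folds of 4.55 and 4.44, and BHLHE40 80.6 kb upstream (chr3:4940295-4940603) with 3.98 and 4.47.

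The 98 regions called in all 6 libraries differed widely in strength. Their mean folds ran from 3.38 to 17.8 with a median of 8.01, and the median over all regions of the series called in all 6 libraries was 8.52. Their percentile differences between treatments were small, with a median size of 3.13 points against 3.54 over all shared regions. In 8 of the 98 (8.16%) all 3 dexamethasone percentiles lay above all 3 ethanol percentiles, beside 5.55% of the 39496 shared regions, and in 6 (6.12%) the reverse held, beside 5.8%. With a replicate block, which asks only that no numbered pair moves the other way, the counts were 18 (18.4%), beside 13.8% of all, and 17 (17.3%), beside 15%. Without dexamethasone library 3 the first count was 13, beside 12.1% of all regions, and without ethanol library 3 it was 14, beside 10%. It was 11 without any other single library, beside 9.74% to 10.6%. The second count was 12 without dexamethasone library 1, beside 11.2%. It was 11 without dexamethasone library 2 or ethanol library 2, beside 10.9% and 9.8%. Without dexamethasone library 3 or ethanol library 3 it was 10, beside 11.7% and 10.9%. Without ethanol library 1 it was 7, beside 10.9%. The shares over all regions rose to between 9.74% and 12.1% under these looser rules. By deposited fold, with all 6 libraries, 5 of the 98 (5.1%) had all dexamethasone values above all ethanol values. The share over all regions called in all 6 libraries was 5.73%. The reverse held in 9 (9.18%), beside 5.59%, so which treatment had more separated regions depended on the measure.

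The widest separation lay in the NR1D1 window, 79.0 kb downstream of the start of this REV-ERB alpha gene (hg19 chr17:38177614-38178258, 645 bp). The folds were 9.06, 9.66 and 10.3 with dexamethasone and 4.14, 5.17 and 4.76 with ethanol. The percentiles were 87.7, 88.9 and 92.1 against 27.2, 45.5 and 28.8. Every dexamethasone library was well above every ethanol library, and the difference of 55.7 points ranked 4 among the 39496 shared regions. The peaks covered 620, 616 and 594 bp with dexamethasone and 353, 337 and 282 bp with ethanol, so they were also wider. The difference stayed between 52.4 and 61.6 points when any 1 library was left out. In RefSeq order the protein-coding genes downstream of NR1D1 are THRA, which encodes a thyroid hormone receptor, MED24, a Mediator subunit, and CSF3, a granulocyte growth factor, so the region has other neighbours than the clock gene.

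The PER1 window held a smaller shift 42.1 kb downstream (chr17:8013469-8013912, 444 bp), 6.27 kb from the dexamethasone-only region. Its folds were 9.20, 9.74 and 9.38 with dexamethasone against 7.65, 7.72 and 7.12 with ethanol, means of 9.44 ± 0.28 and 7.50 ± 0.33 (SD, n = 3 each). Percentiles were 72.8, 74.2 and 77.0 against 62.4, 65.4 and 59.3. Neither scale overlapped, and the difference of 12.3 points ranked 4908 among all shared regions, so shifts of this size were common in the series.

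A BHLHE40 region 28.3 kb upstream (chr3:4992614-4993047) differed by 25.5 points, but 1 library carried much of it. The percentiles were 60.6, 26.1 and 14.1 with dexamethasone and 10.4, 6.53 and 7.21 with ethanol. The folds were 8.92, 5.74 and 4.81 against 4.73, 4.88 and 4.91, and these overlapped. Without dexamethasone library 1 the difference was 12.1 points. An NR1D2 region 53.9 kb downstream (chr3:24040452-24040754) had percentiles of 50.7, 42.4 and 42.8 against 24.4, 39.6 and 37.9, a difference of 11.3 points that was 6.56 without ethanol library 1. Its folds of 9.01, 8.06 and 7.41 overlapped those of ethanol at 6.35, 7.69 and 7.14.

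The widest separation towards ethanol was again in the NR1D1 window, 79.5 kb upstream of the start (chr17:38336313-38336605). The percentiles were 25.3, 26.8 and 6.75 with dexamethasone and 30.7, 47.4 and 34.7 with ethanol, and the difference was -18.0 points, or -11.5 without dexamethasone library 3. The folds of 4.49, 4.52 and 3.59 against 4.69, 5.72 and 5.21 did not overlap either. The other 9 separated regions differed by 4.18 to 8.61 points towards dexamethasone or by -2.26 to -6.46 towards ethanol. Of all 14, 5 lay near PER1, 5 near NR1D1, and 1 each near CRY2, NR1D2, BHLHE40 and ARNTL. None was found at PER2, PER3 or CRY1, which held 12, 3 and 5 of the 98 shared regions.

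**Figure D4:**
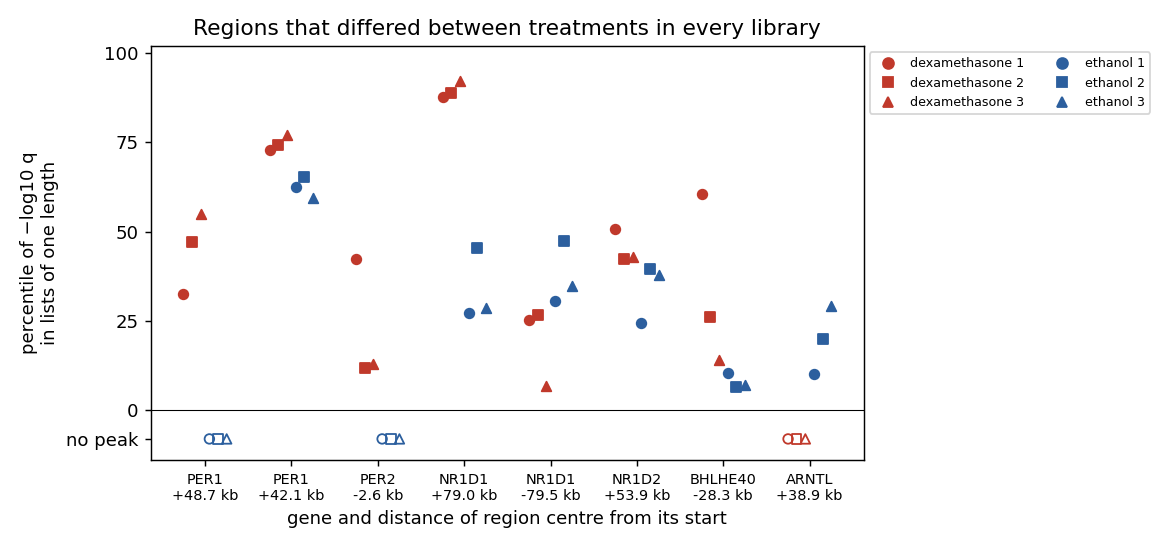
Percentile of −log10 q in lists of one length (vertical axis) for the 3 treatment-only regions and the 5 shared regions with the widest separation, 1 point per library; open symbols at the bottom mark libraries with no called peak. The NR1D1 region at +79.0 kb shows the widest gap, with dexamethasone at 87.7 to 92.1 and ethanol at 27.2 to 45.5.

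**Figure D5:**
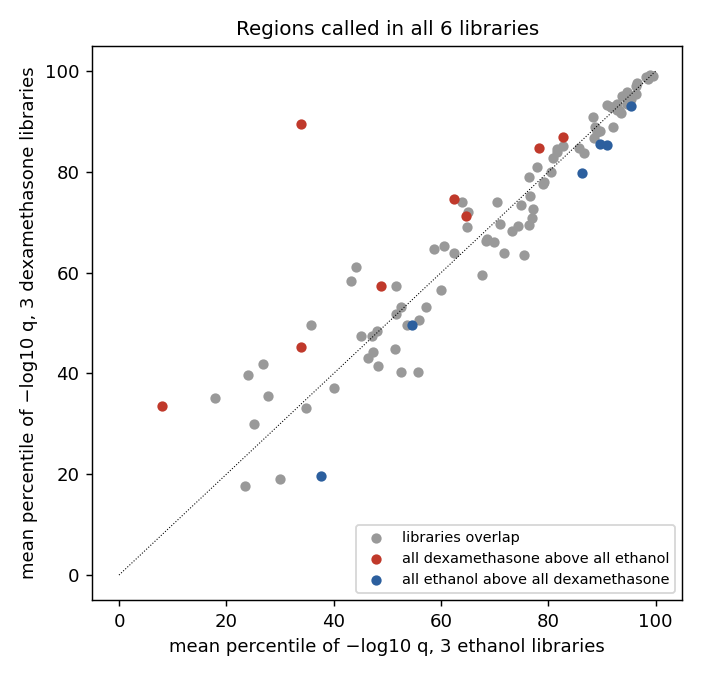
Mean percentile of −log10 q under ethanol (horizontal axis) and dexamethasone (vertical axis), 1 point for each of the 98 regions called in all 6 libraries, with the line of equality. Red points (8) have all dexamethasone libraries above all ethanol libraries and blue points (6) the reverse; the red point far above the line is the NR1D1 region.

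Ranked by mean percentile of −log10 q, the leading site of most windows lay away from the start, and at these sites the folds of both treatments overlapped. Ranked by mean fold, another region led in 5 of the 9 windows, those of PER1, PER2, CRY2, NR1D1 and BHLHE40. ARNTL and CRY1 had their highest mean percentile at the start. PER1 had it 57.9 kb upstream (chr17:8113214-8114151), with folds of 15.7, 17.4 and 16.2 under dexamethasone and 15.4, 15.3 and 16.6 under ethanol. PER2 had it 85.0 kb downstream (chr2:239111658-239112761), with 15.7, 16.5 and 15.3 against 17.5, 16.3 and 17.5. PER3 had it 12.9 kb upstream (chr1:7831087-7831864), with 17.8, 19.2 and 18.3 against 17.3, 19.1 and 14.9. The folds overlapped at all 3 PER genes, and the PER1 and PER2 sites were close in fold to the ARNTL start, while the PER1 and PER2 starts had the lowest folds of the 9.

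In the CRY2 window the site of highest mean percentile lay 42.7 kb upstream (chr11:45825531-45827018), with folds of 13.3, 13.2 and 11.5 against 12.2, 12.96 and 13.1. In the NR1D1 window it lay 39.8 kb upstream (chr17:38296265-38297287), with 15.1, 14.5 and 15.2 against 15.4, 14.6 and 13.6. In the NR1D2 window it lay 28.3 kb upstream (chr3:23958054-23958936), with 15.2, 15.9 and 15.5 against 13.1, 15.4 and 15.2. These 3 sites overlapped between treatments as well. In the BHLHE40 window it lay 7.57 kb downstream (chr3:5028288-5029046), with 10.2, 9.94 and 9.38 against 8.79, 9.95 and 8.88, which also overlapped and had the lowest folds of the 9 leading sites. By mean fold the CRY2 window was led by a region 75.6 kb upstream (13.6, against 12.7 at the site above) and the NR1D1 window by a region 46.1 kb downstream (15.4 against 14.8). The leaders by fold were 47.8 kb upstream at PER1 (17.1 against 16.1), 31.9 kb upstream at PER2 (16.7 against 16.5) and 78.6 kb downstream at BHLHE40 (9.85 against 9.53).

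The 100 kb limit placed 9 regions between 90 and 100 kb inside, none of them dexamethasone-only or ethanol-only. It left 12 between 100 and 110 kb outside, of which 1 was ethanol-only.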

How the data were processed

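The authors deposited 1 list of called peaks per library in hg19 coordinates, made, according to the submitters' processing notes, with MACS2 2.1.0 among other tools (CASAVA 1.3, bedtools, Bowtie), whose settings are not given in the sources used here. In the MACS2 layout, which the lists follow, the deposited ratio gives each summit's fold enrichment, the deposited p-value and q-value are given as −log10, and the deposited score and the summit offset fill the remaining columns; the p-value and the score were not used. The files give no read counts, so sequencing depth is unknown and no interval based on reads can be given. Peak numbers run separately in every list, so calling was taken to be per library.

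Peaks sharing at least 1 bp were merged over all 6 lists and assigned to a gene within 100 kb of its hg19 start, and a region counted as called where the library had a peak in it (Python 3.11.15, pandas 2.3.3, numpy 2.4.6). Calls were compared between treatments by counts beside those over all 81216 regions. Per-library counts were compared by exact two-sided permutation tests. Percentiles of −log10 q were compared after each list was trimmed to the 58281 peaks of the shortest, which gave 39496 shared regions. The merging and counting were tested on simulated peaks. Positions count from 1. The members, lists and tests were chosen with earlier results of these data known. Regions named were those at a start, those called in at least 2 more libraries of one treatment, the highest mean percentile of each window, and the 5 widest percentile separations.

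No pair of lists was identical. Deviations of equally numbered libraries from their treatment means correlated at 0.215, 0.119 and 0.160 on percentiles over the shared regions, above 0.1 in every pair, and at 0.103, 0.0483 and 0.0862 on calls; the pairing therefore rests on the percentiles and on the numbers in the labels. Another 15 clock genes were not counted, since no hg19 starts were used here for them. Motifs were searched on both strands of RefSeq promoter windows of GRCh38.p14. The alternatives tried were a minimum −log10 q of 5, lists of one length, merging across 100 bp, a cover of 50%, windows of 50 and 10 kb, each library left out, and a replicate block.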

Additional observations from a re-analysis of the deposited data

How the results depend on the processing

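The number of peaks differed by 0 between treatments, and by -2.167 to 3.333 when single libraries were left out. The share of each list near the clock genes differed by 0.00276 points, and by -0.002585 to 0.00742 without single libraries, its sign turning without dexamethasone library 1 (-0.000855) or ethanol library 3 (-0.002585). Leaving out libraries gave 2 to 3 dexamethasone-only and 1 to 3 ethanol-only regions, 11 to 14 regions with percentiles above in dexamethasone and 7 to 12 above in ethanol. The window of 10 kb left 1 dexamethasone-only and 0 ethanol-only regions, and 1 and 0 regions with separated percentiles; the window of 50 kb left 4 and 3 of the latter. Within 10 kb the PER1 peak difference was -0.6667. The smaller windows hold fewer regions by construction.

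With the replicate block, in which equally numbered libraries are paired and at least 2 pairs must show the pattern with none reversed, 18 and 17 regions had percentiles higher with dexamethasone and with ethanol. For calls this rule picks, by construction, the regions called in at least 2 more libraries of one treatment, 4 and 6, whatever the pairing, so it is no test of the block. The paired exact permutation test gave p = 1 for the peak count (difference 0), p = 0.5 for the share (0.00276) and p = 0.25, the smallest it can give, for the PER1 count (2.667).

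Of the values for counts and shares under alternatives, the PER1 count apart, 51 stayed within the spread between libraries or within 1.5 times the count. Another 21 moved and 2 turned sign. The 150 values of the 15 leaning or separated regions among the 31 named kept their direction. For the separated regions this was the sign of the mean percentile difference, and whether the percentiles still did not overlap was not followed. With a library left out, some leaning regions had fewer than 2 more libraries of one treatment. An example is CRY1 33.2 kb upstream, at 0.5 without dexamethasone library 1 or 2. With all 6 libraries in use, 2 leaning regions no longer met their criterion everywhere. The difference in the share of libraries with a peak went from -0.6667 to -0.3333 at PER2 79.2 kb upstream in lists of one length. At BHLHE40 80.6 kb upstream it did so there and at a minimum −log10 q of 5. The regions named only for lying at a start or for their percentile were not run under the alternatives. Merging across gaps and the cover of 50% change regions alone and gave no peak counts per library. Depth is unknown, so a missing call cannot be told apart from a library too shallow to pass the threshold.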
